A study of Drosophila melanogaster
Schmidtea mediterranea with 2 samples.

Results

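Some H3K4me3 peaks of planarian stem cells lay side by side, with only a short stretch without a listed peak between them. These pairs were chosen by position in the peak list of 1 Mnase-ChIP library. Neighbouring peaks were chained where the next start lay at most 500 bp after the previous end, and the chains of exactly 2 peaks were taken. The rule gave 1110 pairs, or 2220 of the 14553 listed peaks (15.3%, 95% Wilson interval 14.7% to 15.8%). Another 12008 peaks stood alone and 325 belonged to chains of 3 or more. Because the gap chose the pairs, the gap values are a description only, and the widths were not used by the rule.

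The chromatin came from X1 cells, the dividing stem cells that are sorted by FACS from untreated adults of the asexual strain of Schmidtea mediterranea. A total of 800 K X1 cells were pooled with 9.8 M cells of the Drosophila S2 line, the number in the design text, and the paper's methods give a slightly lower number. Chromatin was digested with micrococcal nuclease (Mnase), which cuts between nucleosomes, and 1 library was made from the H3K4me3 precipitate and 1 from the input. With 1 library of each kind no value has a replicate error, no difference was tested, and peaks of 1 library were not taken as replicates. Intervals are 95% intervals for counting error, by Wilson's method for shares and from order statistics for medians. The list gives positions but no score, height or read number, which leaves the depth of each peak unknown.

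Trimethylation of histone H3 at lysine 4 is placed by enzymes of the Set1 and MLL families on nucleosomes around the starts of active genes. The start site itself is often short of nucleosomes. Divergent genes whose starts face away from each other can therefore carry marked nucleosomes on both sides of a gap. A single marked domain can also appear as 2 listed peaks when the signal dips inside it. Whether either of these, or another arrangement, applies to a given pair cannot be told from positions alone. Gene models and genome sequence of this assembly were not used here. The pairs are therefore described by their gap, by the widths of both peaks and by the span from the first start to the second end.

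The gaps of the pairs were most numerous near the shortest gap in the list and spread from there up to the limit. The median gap was 267 bp (261 to 276 bp), the middle 50% of the pairs lay between 212 and 348 bp, and 10% had gaps over 416 bp. No neighbouring peaks in the whole list were closer than 176 bp, and the narrowest listed peak was 175 bp wide. The caller settings behind these lower limits are not given in the sources used here. Of the pairs, 196 (17.7%, 15.5% to 20.0%) had a gap of 176 to 200 bp, 495 (44.6%) of 201 to 300 bp, 282 (25.4%) of 301 to 400 bp and 137 (12.3%) of 401 to 500 bp. In steps of 25 bp the count fell from 196 pairs in the first step to 110 at 276 to 300 bp, 62 at 376 to 400 bp and 29 at 476 to 500 bp.

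**Figure D1:**
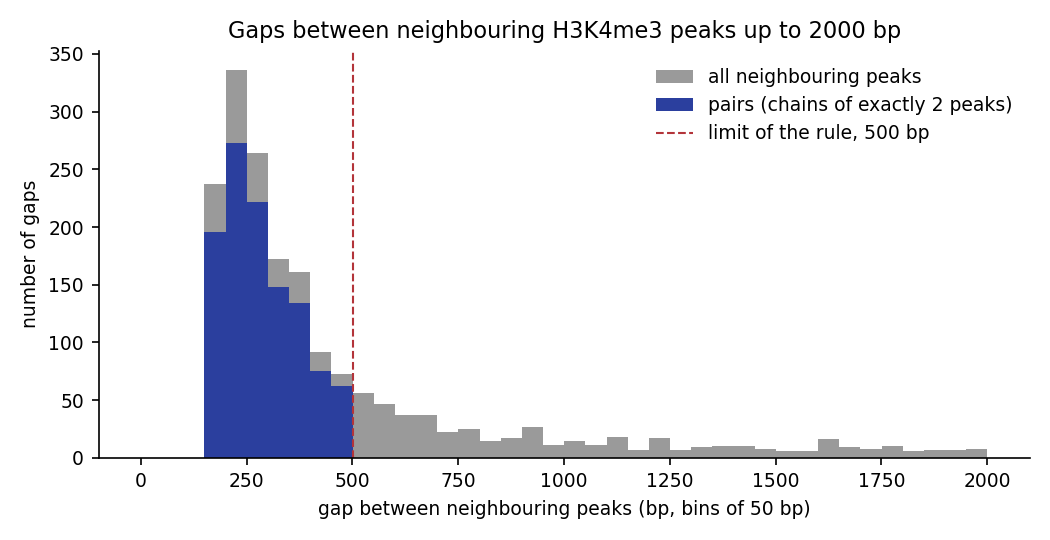
Number of gaps (y axis) by gap length in bp in bins of 50 bp (x axis), for all neighbouring peaks up to 2000 bp apart (grey) and for the pairs (blue), with the limit of 500 bp as a dashed line. Gaps start at 176 bp, so the first filled bin is only partly covered, and from 201 bp on the counts decline across the limit without a break.

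The limit of 500 bp did not fall at a break in the distribution. Over all neighbouring peaks, 600 gaps measured 201 to 300 bp, 333 measured 301 to 400 bp and 165 measured 401 to 500 bp. Just beyond the limit there were 103 gaps of up to 600 bp and 74 of 601 to 700 bp. Beyond 1000 bp, each step of 100 bp up to 2000 bp held between 12 and 26 gaps, so short gaps were much more frequent than gaps of the next kilobase. Of the 14104 gaps in the list, 1335 were within the limit, and the median over all was 34962 bp.

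The pairs nearest to the limit were of several forms. The pair with the longest gap, 500 bp on scaffold 57 from 2012249 to 2013427, had peaks of 287 and 392 bp. The next, with 499 bp on scaffold 78, had peaks of 208 and 1955 bp, and the one after, with 498 bp on scaffold 16, had peaks of 462 and 1271 bp. The first is 2 narrow peaks, the second a narrow peak beside a wide one. Just outside, the 3 closest couples had gaps at most 503 bp long, with widths of 245 and 1711 bp on scaffold 16, 1181 and 1557 bp on scaffold 262, and 1284 and 280 bp on scaffold 5. Both sides of the limit therefore held couples of like widths and couples of very unlike widths.

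At the other end, 6 pairs had the shortest gap of 176 bp. The first 3 of them in scaffold order had peaks of 838 and 682 bp on scaffold 15, 678 and 854 bp also on scaffold 15, and 1150 and 867 bp on scaffold 17. These were couples of like width, with ratios of 1.23, 1.26 and 1.33. The other 3, added after their values were seen, included couples of very unlike width. Their peaks measured 1315 and 229 bp on scaffold 21, 1702 and 319 bp on scaffold 26, and 420 and 723 bp on scaffold 340, with ratios of 5.74, 5.34 and 1.72.

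Within most pairs the peaks differed in width. The wider partner had a median of 998 bp (959 to 1029 bp) and the narrower one of 341 bp (327 to 352 bp). The middle 50% of the wider partners measured 653 to 1377 bp and that of the narrower partners 240 to 535 bp. The ratio of wider to narrower had a median of 2.29 (2.13 to 2.43), with 10% of pairs under 1.14 and 10% over 6.35. In 401 pairs (36.1%, 33.4% to 39.0%) the wider peak was at least 3 times as wide, in 186 (16.8%) at least 5 times and in 22 (1.98%) at least 10 times. In 310 pairs (27.9%, 25.4% to 30.6%) the ratio was under 1.5, and 399 (35.9%) lay between these limits. Below, pairs with a ratio under 1.5 are called near-equal and those with a ratio of at least 3 unequal.

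Taking the larger of any 2 peaks makes the wider one wide and the narrower one narrow, so the pairs were set beside peaks that did not share a short gap. For 10169 couples of consecutive single peaks over 2000 bp apart, the median of the wider peak was 1240 bp (1233 to 1250 bp) and of the narrower one 701 bp (689 to 714 bp). Their median ratio was 1.66 (1.64 to 1.69), 21.3% had a ratio of at least 3 and 42.1% a ratio under 1.5. These couples share peaks with each other, and the difference from the pairs was not tested. In the pairs the medians of both peaks were lower, and the median of the narrower peak was 360 bp below that of the single peaks, against 242 bp for the wider one.

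**Figure D2:**
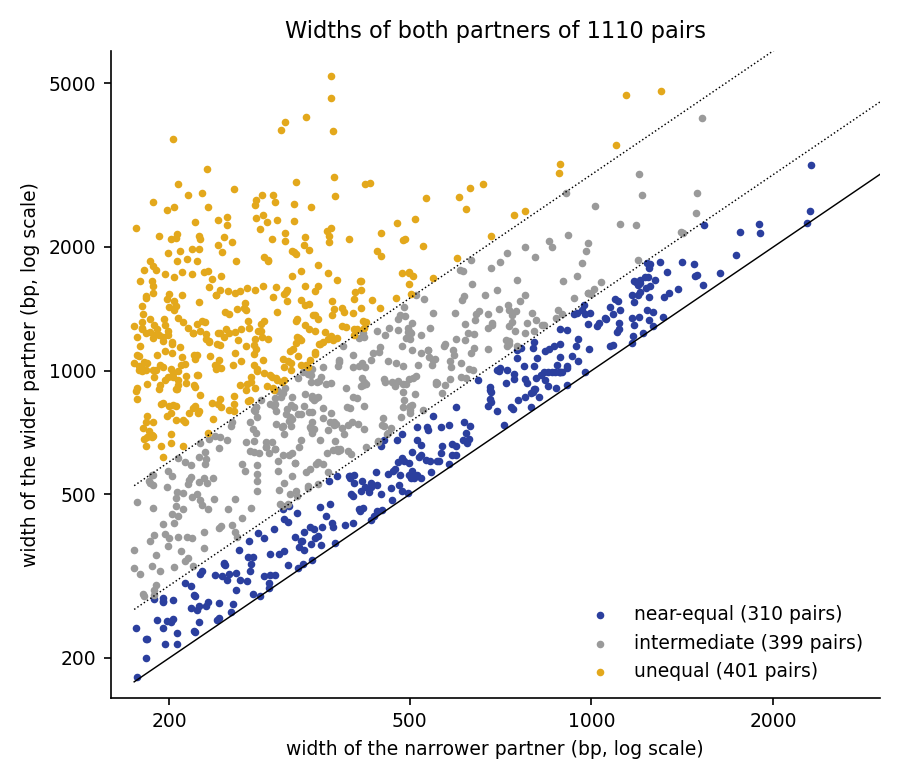
Width of the wider partner (y axis, bp, log scale) against that of the narrower partner (x axis, bp, log scale) for each of the 1110 pairs, coloured by ratio, with equality as a solid line and ratios of 1.5 and 3 as dotted lines. Unequal pairs gather where the narrower peak is under about 500 bp, and near-equal pairs follow the diagonal over the whole range.

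Partner widths showed no tendency to match. Over the 1110 pairs, the widths of the left and right peaks had a Pearson correlation of -0.10 and a Spearman correlation of -0.17. Over the 10169 couples of consecutive single peaks these values were 0.01 and 0.02. For 215 couples with a gap over 500 and up to 1000 bp and no further peak within 1000 bp they were -0.16 and -0.18. All points come from the same library and the same peak calling, and these correlations are given as descriptions.

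Left and right peaks along the scaffold were close in width. The left peak was wider in 559 pairs (50.4%, 47.4% to 53.3%), the right one in 550, and 1 pair had peaks of equal width. The median width was 623 bp (566 to 667 bp) for left and 577 bp (532 to 632 bp) for right peaks. Scaffold direction says nothing about the direction of a gene. Among the 196 pairs with the shortest gaps, 176 to 200 bp, the left peaks had a median of 609 bp (500 to 726 bp) and the right ones of 436 bp (380 to 509 bp). The left peak was nevertheless the wider one in 106 of them (54.1%, 47.1% to 60.9%), and this subset was picked out after its values had been seen.

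The unequal pairs mostly held a narrow peak beside a wider one that was not among the widest of the list. A peak in the widest 10% was present in 127 of the 401 (31.7%), against 186 of all 1110 pairs (16.8%). In the 401 unequal pairs the wider partner had a median of 1290 bp (1245 to 1364 bp) and the narrower one of 255 bp (242 to 269 bp). The narrower peak was shorter than the gap that separated it from the wider one in 216 of them (53.9%). Over all 1110 pairs this held for 371 (33.4%), and the ratio limit itself favours a narrow second peak. Only the wider peak reached the median width of all listed peaks, 940 bp, in 334 (83.3%, against 46.1% of all pairs). In 64 neither did, and in 3 both did. The gap of the unequal pairs, with a median of 267 bp (256 to 280 bp), was like that of all pairs.

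The 5 pairs with the highest ratios were far apart in width. On scaffold 68 a peak of 203 bp from 91971 to 92173 lay 205 bp before a peak of 3664 bp, a ratio of 18.0. On scaffold 149 a peak of 371 bp lay 237 bp before the widest peak of the list, 5196 bp from 1396302 to 1401497, a ratio of 14.0. The others, on scaffolds 132, 98 and 35, had peaks of 2843 and 207 bp, 188 and 2568 bp, and 231 and 3096 bp, with ratios of 13.7, 13.7 and 13.4. In all 5 the wider peak alone lay at the 98.7 percentile of listed widths or above. The narrow peak lay to the left in 4 of them and to the right on scaffold 132.

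The near-equal pairs were mostly couples of narrow peaks, with a smaller number of couples of wide ones. In 198 of the 310 (63.9%, 58.4% to 69.0%) both peaks were narrower than the median of all listed peaks. In 73 (23.5%, 19.2% to 28.6%) both reached it, which left 39 with 1 peak on each side of the median. Over all 1110 pairs these shares were 45.2% for both narrower and 8.65% for both reaching it. Both shares were thus higher among the near-equal pairs, and a low ratio itself favours peaks on the same side of the median. The 198 pairs of narrow peaks had a median span of 1124 bp (1049 to 1228 bp), and a median distance of 703 bp between the peak centres. The 73 pairs of wide peaks had a median span of 2955 bp (2825 to 3115 bp), a median distance of 1625 bp between centres and a median gap of 296 bp (267 to 322 bp). In 35 near-equal pairs (11.3%) both peaks were shorter than the gap between them, against 38 of all 1110 pairs (3.42%). No unequal pair could be counted here, since the wider peak of each measured at least 617 bp.

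Among the pairs with both peaks of at least 1000 bp, 79 in all, the 5 most symmetric ones had ratios of at most 1.03. On scaffold 30, from 2941892 to 2944660, peaks of 1166 and 1167 bp faced each other across 436 bp. On scaffold 87, from 2287824 to 2292607, peaks of 2274 and 2289 bp faced each other across 221 bp. The pairs on scaffolds 52, 50 and 35 had peaks of 1263 and 1282 bp, 1238 and 1219 bp, and 1349 and 1314 bp. Of these 5, the pair on scaffold 87 was the one with both peaks among the widest 10% of the list.

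Both peaks were in the widest 10% in 8 pairs (0.721%, 0.366% to 1.42%), all of them near-equal. The share was 1.22% (1.02% to 1.45%) for consecutive single peaks over 2000 bp apart. It was 0.930% (0.255% to 3.33%) for the 215 couples just beyond the gap limit. Such couples were thus no more frequent in the pairs, and the difference was not tested. Requiring both peaks to be that wide itself favours a low ratio. The 8 pairs lay on scaffolds 1, 3, 8, 12, 38, 40 and 87, with 2 on scaffold 8, and their spans ran from 3820 to 5663 bp. On scaffold 1, from 1684944 to 1689896, peaks of 2450 and 2298 bp were 205 bp apart. On scaffold 40, peaks of 1900 and 2161 bp were 216 bp apart. Between 88.0% and 96.8% of each of the 8 spans was covered by the 2 peaks.

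Narrow peaks were frequent in the pairs. Of the 2220 peaks in pairs, 426 (19.2%, 17.6% to 20.9%) were in the narrowest 10% of the list, at most 280 bp, which by definition holds 10% of all listed peaks. Of the single peaks 953 (7.94%, 7.47% to 8.43%) were that narrow, and of the peaks in longer chains 79 (24.3%, 20.0% to 29.3%). At least 1 such narrow peak was found in 395 pairs (35.6%, 32.8% to 38.4%). Both were that narrow in 31 (2.79%), and 118 pairs (10.6%) had a peak under 200 bp. Among consecutive single peaks over 2000 bp apart, the latter 2 shares were 0.472% and 4.63%. They were 3.26% and 12.6% for couples with a gap over 500 and up to 1000 bp. For the couples with a gap over 500 and up to 1000 bp, the share with a narrowest 10% peak was 36.3% (30.1% to 42.9%), and for consecutive single peaks it was 14.2% (13.5% to 14.9%). The share just beyond the limit was thus close to that in the pairs.

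Wide peaks were somewhat less frequent in pairs by the limit of the widest 10%, and not by higher limits. Of the 2220 peaks, 194 (8.74%, 7.63% to 9.99%) were in the widest 10%, over 1602 bp, against 10% of all listed peaks and 10.3% of the single ones. Those of at least 2000 bp made up 4.64% (3.84% to 5.60%) of the peaks in pairs, against 3.95% of the list. Over 4000 bp were 7 of them, or 0.315% (0.153% to 0.649%), against 0.131% of the list. The larger shortfall was at the median width, which 704 of the peaks in pairs (31.7%) reached, against 50% of all. The median width of a peak in a pair was 601 bp (560 to 634 bp) and that of a single peak 990 bp (978 to 1000 bp). Peaks of longer chains had a lower median still, 462 bp (409 to 545 bp). Of those peaks 23.1% reached the median width of the list and 8.62% were in the widest 10%, so neither shortfall was particular to pairs. The wider partner alone, with its median of 998 bp, was close to the median of the single peaks, but it is the larger peak of a couple. In couples of consecutive single peaks over 2000 bp apart, the wider peak had a higher median, 1240 bp (1233 to 1250 bp).

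**Figure D3:**
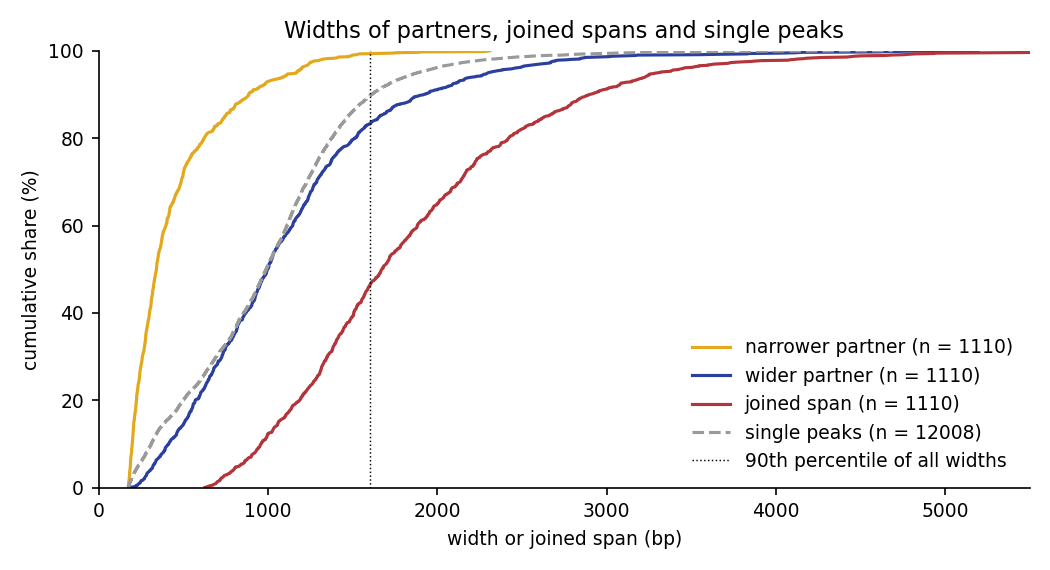
Cumulative share in % (y axis) of the narrower partners, the wider partners and the joined spans of the 1110 pairs and of the 12008 single peaks, by width or span in bp (x axis), with the 90th percentile of all widths, 1602 bp, as a dotted line. The curves of the wider partners and of the single peaks come close near their medians of 998 and 990 bp. The wider partners are the larger peak of each pair, whereas the single peaks were not picked by width. The narrower partners lie far to the left, and the joined spans reach the dotted line at less than 50%.

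Joined across their gap, most pairs were longer than most single listed peaks, since a span holds 2 peaks and a gap. The median joined span was 1674 bp (1612 to 1724 bp), the middle 50% ran from 1286 to 2233 bp, and 10% were over 2900 bp. In 595 pairs (53.6%, 50.7% to 56.5%) the span exceeded the 90th percentile of listed widths, which 10% of the listed peaks do. In 409 of these 595 no partner alone was that wide. The gap adds its own length to the span, and the widths of both peaks without the gap summed to more than this limit in 440 pairs (39.6%, 36.8% to 42.5%). The widths of 2 consecutive single peaks over 2000 bp apart summed to more than it in 7066 of 10169 couples (69.5%, 68.6% to 70.4%). This share was lower in the pairs, and the difference was not tested. The peaks covered a median of 83.5% (82.9% to 84.1%) of the span.

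Spans of at least 2000 bp were found in 390 pairs (35.1%), of which 100 had a single peak of that width. For comparison, 575 listed peaks measured at least 2000 bp as called, and 460 of them were single peaks. Spans over 4000 bp were found in 25 pairs, and in 18 of them neither peak alone exceeded 4000 bp. In the whole list, 19 peaks exceeded 4000 bp as called, 11 of them single peaks and 7 of them in pairs. At the short end, 136 pairs (12.3%) spanned less than 1000 bp even when joined. Together the peaks of the pairs held 12.4% of all bp in the list, and closing their gaps would add 318000 bp, or 2.28%.

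The 5 longest spans took in unequal and near-equal pairs and, on scaffold 23, a pair between these forms with a ratio of 2.71. On scaffold 76 peaks of 1305 and 4789 bp, 390 bp apart, spanned 6484 bp from 2510093 to 2516576. On scaffold 1 peaks of 4680 and 1139 bp, 182 bp apart, spanned 6001 bp from 9524514 to 9530514. On scaffold 23 peaks of 1523 and 4120 bp, 178 bp apart, spanned 5821 bp from 1027643 to 1033463. In these 3 a second peak of over 1 kb stood beside a peak of over 4 kb. The pair on scaffold 149, which also had one of the highest ratios, spanned 5804 bp. The pair on scaffold 8 spanned 5663 bp from 1564860 to 1570522, with peaks of 3172 and 2311 bp across a gap of 180 bp.

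**Figure D4:**
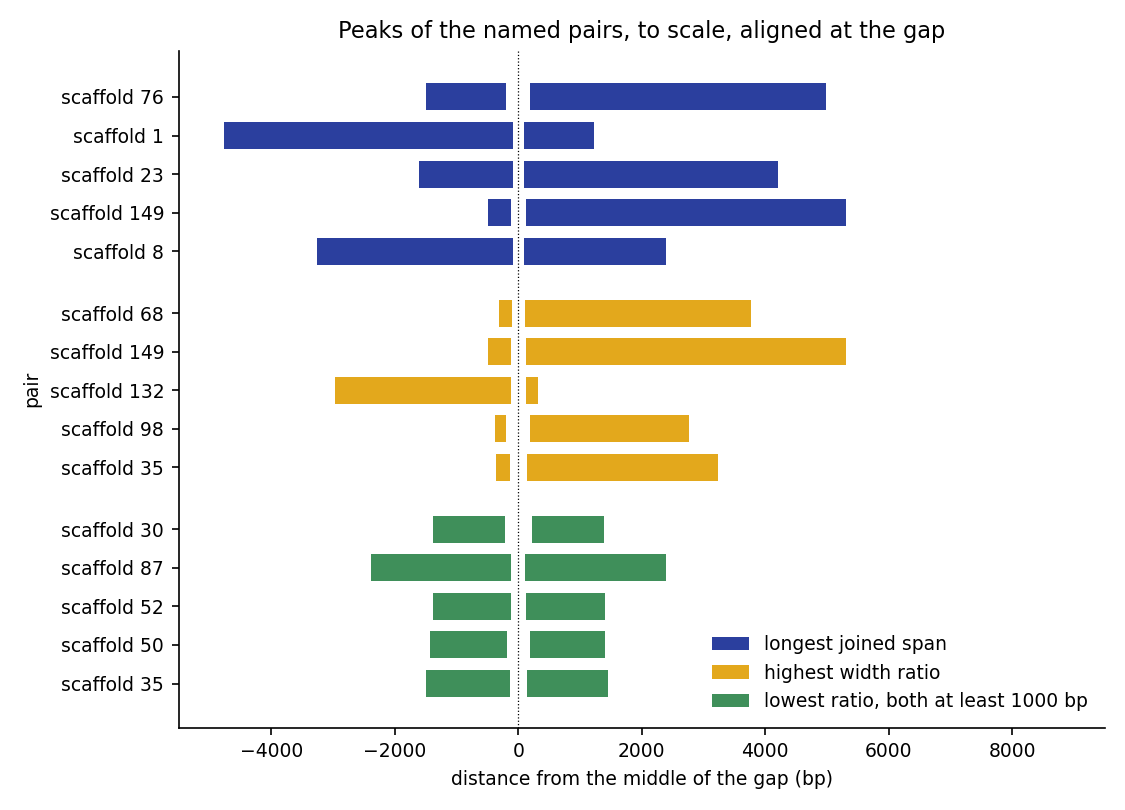
Peaks of the pairs with the 5 longest spans, the 5 highest ratios and the 5 lowest ratios with both peaks of at least 1000 bp, drawn as bars to scale and aligned at the middle of the gap (x axis, bp), 1 pair a row. The gap, at most 436 bp in these rows, is small beside the wide peaks, and the pair on scaffold 149 appears under both the longest spans and the highest ratios.

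The width of the narrower partners changed little with the gap, and that of the wider partners varied more. Narrower partners had medians of 331, 334, 353 and 365 bp at gaps of 176 to 200, 201 to 300, 301 to 400 and 401 to 500 bp, with overlapping intervals. Wider partners had medians of 914 bp (818 to 964 bp), 1002 bp (940 to 1044 bp), 1125 bp (1005 to 1198 bp) and 1006 bp (907 to 1074 bp). The interval at the shortest gaps did not overlap that at 301 to 400 bp, and all other intervals of the wider partners overlapped. Across pairs the gap had a Spearman correlation of 0.12 with the summed widths and of -0.03 with the ratio.

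Forms of pairs were also similar across gaps. Unequal pairs made up 37.2%, 35.8%, 37.2% and 33.6% of the pairs in the 4 gap classes, from the shortest to the longest. Near-equal pairs made up 25.5%, 27.1%, 27.0% and 36.5%, the highest share being 50 of 137 pairs at 401 to 500 bp. Beyond the limit, between 500 and 1000 bp, the wider peak had a median of 1151 bp (1043 to 1234 bp), the narrower one of 346 bp (309 to 385 bp), and 40.9% of the couples were unequal (34.6% to 47.6%). The couples just beyond the limit thus had narrower peaks like those of the pairs, well under the 701 bp of consecutive single peaks.

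**Figure D5:**
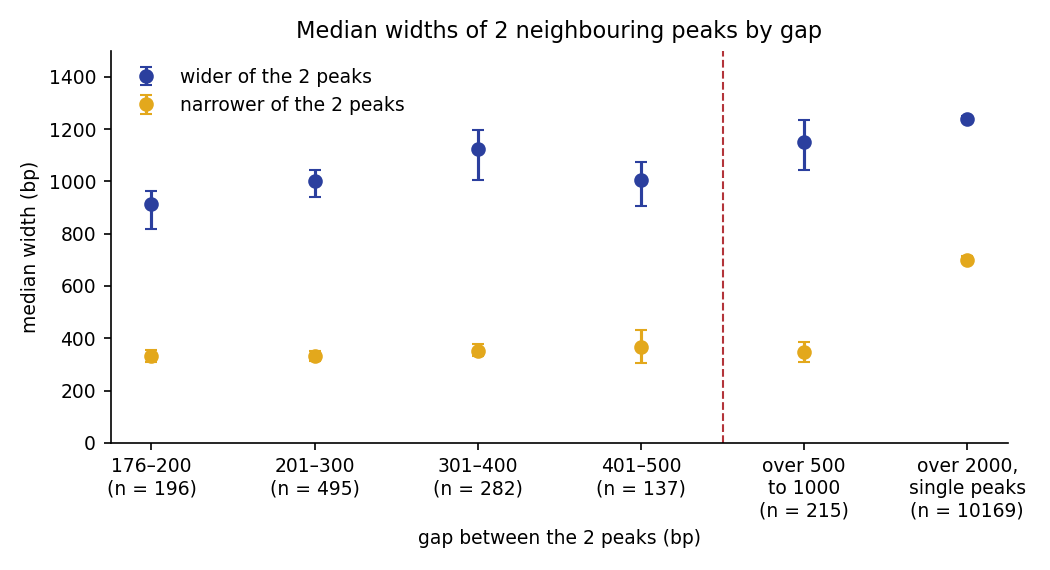
Median width in bp (y axis) of the wider (blue) and the narrower (gold) of 2 neighbouring peaks by gap in bp (x axis), for 4 gap classes of the pairs, for couples over 500 and up to 1000 bp apart and for consecutive single peaks over 2000 bp apart, with 95% order-statistic intervals. The narrower peaks stay between 331 and 365 bp up to 1000 bp and stand at 701 bp for the single peaks, and the dashed line marks the limit of 500 bp.

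The pairs stood apart from other peaks much as single peaks did. For the 1015 pairs with a listed peak on both sides, the nearest outside peak was at a median of 24637 bp (22678 to 26578 bp). For 11261 single peaks it was at 22154 bp (21662 to 22693 bp), and the rule keeps neighbours over 500 bp away in both sets. A peak within 2000 bp was found for 77 pairs (7.59%) and 821 single peaks (7.29%). The nearest outside peak lay on the side of the wider partner in 498 of 1015 pairs (49.1%, 46.0% to 52.1%), and the interval included 50%.

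Pairs occurred on 284 of the 449 scaffolds with a listed peak. Scaffold 1 had the most, 36 pairs among 425 peaks, followed by scaffold 5 with 21 among 245 peaks and scaffold 15 with 21 among 297. On the 33 scaffolds with at least 100 peaks, the share of peaks in pairs ran from 4.69% to 18.7% with a median of 12.9%, and none of these scaffolds lacked a pair. Scaffolds with fewer peaks varied more, as in 0 of 40 peaks on scaffold 117 and 16 of 32 on scaffold 180.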

How the data were processed

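The authors aligned Mnase-ChIP reads to the Rink lab v4 genome (dd_Smes_g4 scaffolds) with bowtie2, then called peaks with MACS2. Versions, options and the use of the input library are not given in the sources used here. The deposited list holds start and end positions in bp for 14553 peaks, with 0 duplicates and 0 overlaps. Starts were read as counted from 0, so width and gap are differences, and printed positions count from 1.

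Chains, widths and spans were computed in pandas 2.3.3 with numpy 2.4.6 and scipy 1.17.1 (Python 3.11.15) and plotted in matplotlib 3.10.9. Chaining was checked on simulated lists. Percentiles count equal widths at 50%. Pairs were named for the longest spans, the highest and lowest ratios, or gaps at either end. The 8 pairs of 2 wide peaks and 3 further pairs with the shortest gap were named after their values were seen. Members, lists and limits were chosen with earlier results of these data known. Planarian gene models and sequence were not used here, so gene orientation was not analysed, and the part of the naming rule on pairs at genes drawn in the paper was not applied. Alternatives varied the gap limit, minimum width, scaffolds and start counting.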

Additional observations from a re-analysis of the deposited data

How the results depend on the processing

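Of 70 alternative values, 56 stayed within the counting interval of the value as reported (the number of pairs within 1.5 times). Gap limits of 300, 400, 750 and 1000 bp gave 739, 994, 1218 and 1267 pairs, against 1110 at 500 bp. By construction the limit moved the median gap, to 224, 254, 285.5 and 292 bp. The median joined span moved to 1547, 1728 and 1783 bp at limits of 300, 750 and 1000 bp, and the share of spans over the 90th percentile of widths to 46.0%, 56.7% and 58.6%. At 300 bp the wider partner had a median of 950 bp, and both partners reached the median width in 6.90% of pairs. With only peaks of at least 200 bp, the narrower partner rose to a median of 366 bp, since the filter removes narrow peaks. The median ratio, the share of pairs with a wider left peak and the share with a partner in the narrowest 10% stayed within their intervals under all 7 alternatives. Percentile limits of width were taken anew from each altered list. Under the width filter the limit of the narrowest 10% thus rises too, which itself favours a steady share. Starts counted from 1 and scaffolds with at least 10 peaks moved none of the 10 results. Those 2 settings gave 1111 and 1047 pairs, nearly the same set, so little could move. No paired analysis was possible because there is 1 library per condition, and no replicate could be left out. Gene orientation at pairs was not run, since no gene annotation of this assembly was used here. The unknown depth limits what a gap or a narrow peak can show.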
